A study of Mus musculus with 11 samples.

Results

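Cadherins are calcium-dependent adhesion proteins of the cell surface. The 67 genes described here are the protein-coding genes of the deposited count table whose symbols mark them as cadherins, protocadherins, Fat, Dchs or Celsr proteins, out of 27687 genes in the table. They fall into 43 genes outside gene clusters and 24 clustered protocadherins of the Pcdha, Pcdhb and Pcdhg type, which were counted apart. RNA was sequenced from 9 mouse high-grade gliomas with prolonged Ezh2 knockdown and from 2 control tumours without it. All 11 tumours grew from the same kind of cell, glioma-initiating cells made from neural stem cells of the subventricular zone. The stem cells came from mice 7 days of age with the conditional alleles p53;Ink4a/Arf;Krasv12;LucR. The floxed alleles were recombined in culture with a lentiviral CMV-Cre. Every tumour, controls included, carried FH1-tUTG-shEzh2, a doxycycline-responsive short hairpin construct against Ezh2, and grew in the brain of a NOD-SCID mouse. NOD-SCID hosts lack mature lymphocytes but keep myeloid cells, vessels and brain tissue, and reads of mouse host and mouse tumour cannot be told apart. The series text says that some hosts drank doxycycline and some did not, whereas the labels give the same protocol of 2 mg/ml with 1% sucrose for every sample. Effects of doxycycline and of the hairpin cannot be told apart.

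Classical cadherins bind the same cadherin on the next cell and are tied to actin by catenins. N-cadherin (Cdh2) is the main one of neural stem cells. Protocadherins have similar extracellular repeats but no catenin-binding tail, and the clustered ones give neurons and glia a combinatorial surface identity. Fat and Dchs proteins bind each other across cells, and Celsr proteins, which also span the membrane like a G protein-coupled receptor, orient cells within a sheet as part of planar cell polarity. Ezh2 is the methyltransferase of Polycomb repressive complex 2, which keeps developmental genes silent.

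The libraries held between 11209233 and 18638382 counts. Ezh2 was at 7.27, 14.6 and 30.4 CPM (counts scaled to the library size with TMM factors; lowest, median and highest) in the 9 knockdown tumours, against 45.3 and 52.7 CPM in the controls. All knockdown tumours lay below both controls (exact two-sided permutation p = 0.018, the smallest that 9 against 2 tumours allow; log2 fold change -1.59 ± 0.44 SE, edgeR adjusted p = 0.023). The edgeR call of Ezh2 was lost with either control left out (adjusted p = 0.11 without control 1 and 0.14 without control 2). Knockdown tumours 7 and 9 stood apart from the other tumours at one end of the second principal component and knockdown 6 at the other, and knockdown tumours 1, 7, 8 and 9 had 14 or fewer Xist reads, whereas each other library had over 100. The mitochondrial share of counts was 3.43 to 13.5% in the knockdown tumours, 6 of the 9 lying above both controls, against 4.28 and 5.45% in the controls, and its part in the results was not tested. In bulk tumours, fewer cells of a type and less RNA per cell cannot be told apart.

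Among the cadherins and protocadherins outside the clusters, the neural cadherins Cdh2 and Cdh4, the planar polarity gene Celsr2, the protocadherin Pcdh8 and T-cadherin (Cdh13) were lower in the knockdown tumours. Cdh19, a type II cadherin of glia, the endothelial Pcdh12 and the delta protocadherins Pcdh10, Pcdh17 and Pcdh18 were higher. Of the 43 genes, 35 had enough counts to be tested, and of these 6 rose and 10 fell (edgeR's quasi-likelihood F-test; adjusted over all tested genes by Benjamini-Hochberg, threshold 0.05). Over all 16241 genes tested 23.3% were called, 10.3% higher and 13% lower. The median log2 fold change was -0.82 over the 35 tested genes and 0.07 over all tested genes. In 16 of the 35 the groups did not overlap, 8 with every knockdown tumour above both controls and 8 with every one below, against 27.2% of all tested genes. A gene that passes the count filter through the group where it is high is more likely to differ, so that these counts describe the genes and are no evidence about the family.

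The calls rest on both controls together. With control 1 left out, Cdh15, Cdh20, Cdh23, Celsr2 and Pcdh8 passed. With control 2 left out it was Cdh6, Cdh13, Cdh23, Celsr2, Pcdh1 and Pcdh8, and every gene that passed in either fit was lower. Over all tested genes, too, fewer passed in either fit than with both controls, in both directions. In these fits the lone control is assumed to vary like the other tumours. Celsr2, Pcdh8 and Cdh23 passed in both. None of the 16 called genes changed sign in any alternative fit. The plot of fold changes by structural group sets the 5 groups side by side.

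**Figure D1:**
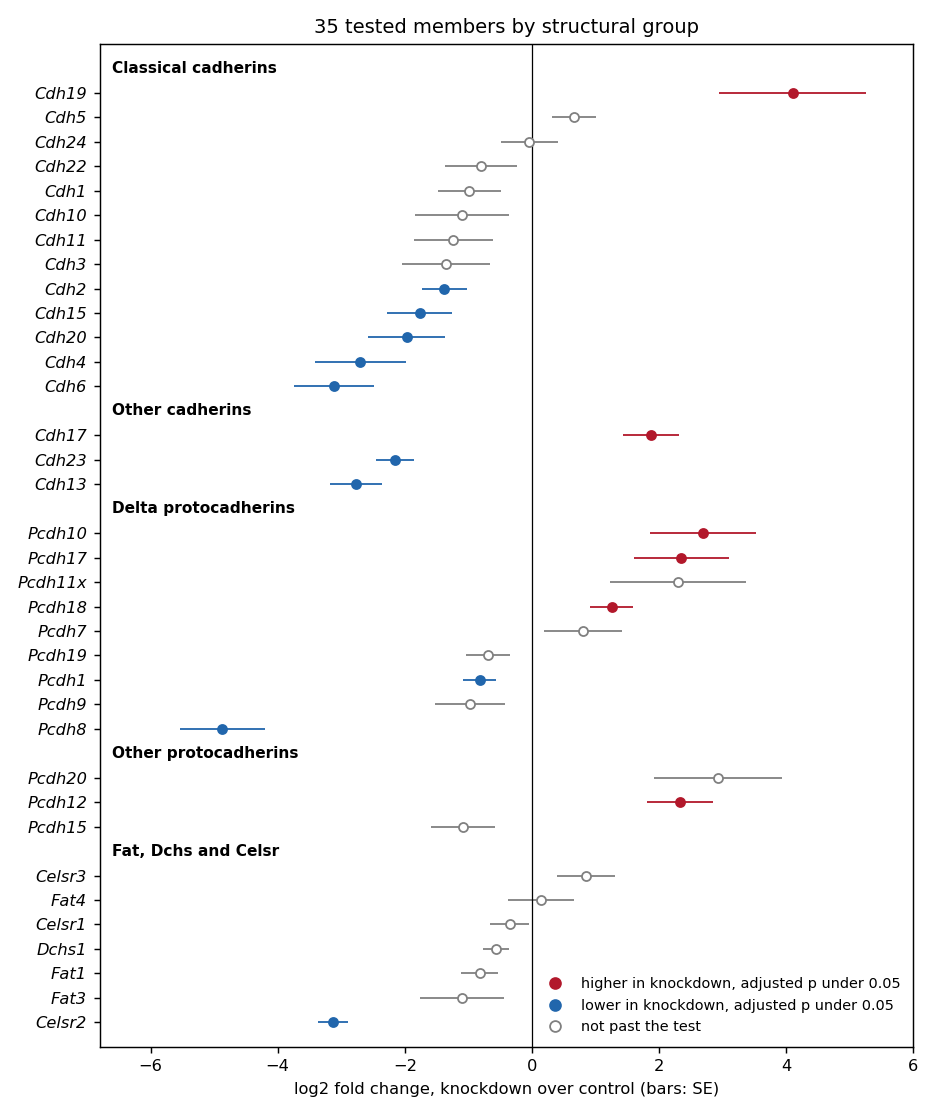
Log2 fold change of knockdown over control (x axis, bars are SE) for the 35 tested genes outside the clusters, grouped by structure. Filled points passed the edgeR test (adjusted p under 0.05), with 6 higher and 10 lower; Pcdh8 is the lowest at -4.87 and Cdh19 the highest at 4.11.

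Of the 18 classical cadherins 13 were tested, and 5 fell and 1 rose, against 13% lower and 10.3% higher over all tested genes. Cdh2 (N-cadherin; ENSMUSG00000024304, mm9 chromosome 18, 16747386 to 16967755) was at 82.0, 121 and 282 CPM (lowest, median and highest) in the knockdown tumours, against 371 and 305 CPM in the controls. All 9 knockdown tumours lay below both controls, with knockdown 9 closest to them and the next highest at 143 CPM. The log2 fold change was -1.38 ± 0.36 (SE; edgeR, adjusted p = 0.017). Cdh4 (R-cadherin, a close relative of N-cadherin; mm9 chromosome 2, 179177136 to 179634078) was at 3.72, 7.44 and 50.2 CPM in the knockdown tumours, against 50.9 and 119 CPM in the controls. Knockdown 9 came within reach of control 1, and the other knockdown tumours stayed at or below 15.5 CPM (log2 fold change -2.70 ± 0.72, adjusted p = 0.020). Both lost their calls with 1 control, Cdh2 at -1.24 and -1.52 (adjusted p = 0.16 and 0.066 without control 1 and control 2) and Cdh4 at -3.19 and -1.97 (adjusted p = 0.052 and 0.22).

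The other 3 classical cadherins that fell overlapped a control and leaned on the other control. Cdh6, a type II cadherin of the embryonic kidney and brain, was at 2.06, 5.66 and 18.4 CPM in the knockdown tumours, against 117 and 16.7 CPM in the controls (log2 fold change -3.12 ± 0.63, adjusted p = 0.0054). Without control 1, the high one, the fold change was -1.11 and not called (adjusted p = 0.44). Cdh20, a type II cadherin, was at 0.545, 2.96 and 5.80 CPM in the knockdown tumours, against 3.39 and 21.9 CPM in the controls, and Cdh15, the cadherin of muscle precursors, at 0.636, 1.99 and 4.00 CPM, against 3.08 and 10.8 CPM. Here control 2 was the high one: the log2 fold changes were -1.97 ± 0.61 and -1.77 ± 0.51 (adjusted p = 0.035 and 0.027), and without control 2 they were -0.08 and -0.60 (adjusted p = 0.96 and 0.60). Cdh20 was also lost by limma-voom (adjusted p = 0.092) and without any 1 of knockdown 1, 2, 4, 5 and 8 (adjusted p between 0.051 and 0.058).

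Cdh19 (ENSMUSG00000047216, mm9 chromosome 1, 112785772 to 112873949), a type II cadherin of Schwann cell precursors and other glia, rose. Its level was 2.62, 12.4 and 36.9 CPM in the knockdown tumours, against 1.38 and 0.188 CPM in the controls, with knockdown 9 the highest and knockdown 3 the lowest. No knockdown tumour overlapped the controls, and control 2, with 3 counts, was at the detection floor. The log2 fold change was 4.11 ± 1.16 (adjusted p = 0.025), and it was 6.08 without control 1 and 3.25 without control 2 (adjusted p = 0.071 and 0.17). Cdh19 did not pass limma-voom (adjusted p = 0.10). The myelin list was also higher than in the controls. Of 7 oligodendrocyte markers 3 rose, Mbp and Mobp among them, against 10.3% of all tested genes. The summed level of the list was between 279.6 and 438 CPM in the knockdown tumours, against 132 and 106 CPM in the controls. The highest sum was in knockdown 3, where Cdh19 was lowest, and the lowest sum was in knockdown 7, where Cdh19 was at 3.54 CPM. Whether the sum follows Cdh19 from tumour to tumour was not tested. With either control left out, 2 of the 7 rose. The part of these cells in the result was not tested.

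The remaining 7 tested classical cadherins did not pass. Cdh5 (VE-cadherin, of endothelial junctions) was at 17.8, 42.0 and 54.7 CPM in the knockdown tumours, against 28.9 and 22.9 CPM in the controls. It stood above both controls in 7 of 9 knockdown tumours (log2 fold change 0.66 ± 0.35, adjusted p = 0.19), and passed without knockdown 3, the lowest (0.76, adjusted p = 0.044). Cdh11, a cadherin of mesenchymal cells, was at 5.01, 21.5 and 47.3 CPM in the knockdown tumours, against 60.7 and 52.7 CPM in the controls. Its groups did not overlap, but the spread among the knockdown tumours was wide (-1.23 ± 0.63, adjusted p = 0.17). Cdh1 (E-cadherin, the epithelial one) was scarce at 1.71, 3.22 and 5.68 CPM in the knockdown tumours, against 2.77 and 10.5 CPM in the controls (-0.98 ± 0.49, adjusted p = 0.17), and without control 2 its sign turned (0.28). Cdh3 (-1.36 ± 0.69), Cdh10 (-1.10 ± 0.73), Cdh22 (-0.80 ± 0.57) and Cdh24 (-0.04 ± 0.45) did not pass either, with adjusted p between 0.18 for Cdh3 and 0.96 for Cdh24. The 5 untested ones, Cdh7, Cdh8, Cdh9, Cdh12 and Cdh18, had between 0 and 17 counts in a knockdown tumour and 2 or fewer in a control.

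Cadherins without the classical tail went both ways. Cdh13 (T-cadherin, which is held by a lipid anchor; ENSMUSG00000031841, mm9 chromosome 8, 120807633 to 121848821) was at 27.1, 53.8 and 108 CPM in the knockdown tumours, against 538 and 184 CPM in the controls. Every knockdown tumour was below both controls, knockdown 7 being the highest, and Cdh13 fell by 2.77 ± 0.41 on the log2 scale (adjusted p = 0.00096). Without control 1 its value was -1.80 and just missed the threshold (adjusted p = 0.0504). Cdh23, a partner of Pcdh15 in the tip links of hair cells, was at 3.77, 7.22 and 8.91 CPM in the knockdown tumours, against 24.8 and 32.5 CPM in the controls (-2.15 ± 0.30, adjusted p = 0.00074), with -2.34 and -1.95 when either control was left out. Cdh17, the liver-intestine cadherin, was at 1.33, 3.66 and 4.94 CPM in the knockdown tumours, against 0.846 and 1.13 CPM in the controls. All 9 knockdown tumours lay above both controls, knockdown 9 only narrowly (1.87 ± 0.44, adjusted p = 0.011; 0.13 and 0.062 without control 1 and control 2). Cdh16 and Cdh26 had at most 9 counts in a library and were not tested.

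**Figure D2:**
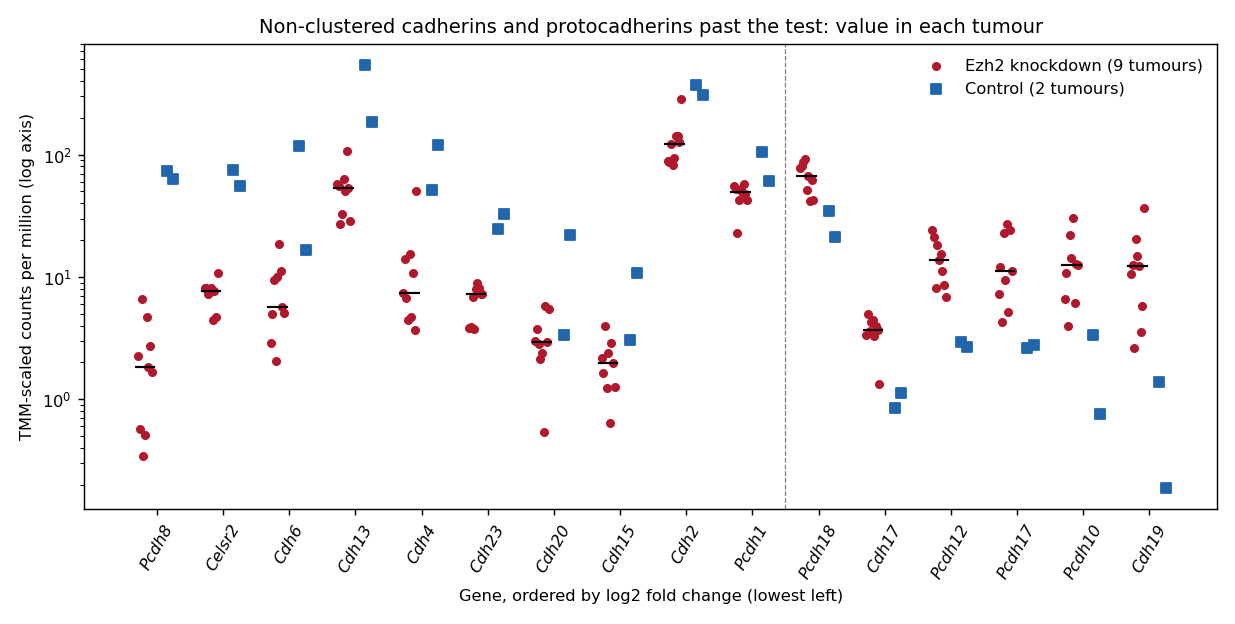
Level of each of the 16 called genes outside the clusters in every tumour (y axis, TMM-scaled CPM on a log axis); red points are the 9 knockdown tumours with their median as a line, blue squares the 2 controls. Genes left of the dashed line were lower in the knockdown tumours, and only Cdh6, Cdh20 and Cdh15 overlap a control.

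The delta protocadherins outside the clusters, which are known to sort neural cells and to act on the actin cytoskeleton, split. Of 9 tested, 3 rose, 2 fell and 4 did not pass, against 10.3% higher and 13% lower over all tested genes. Pcdh8 (also known as arcadlin, or paraxial protocadherin in the embryo; ENSMUSG00000036422, mm9 chromosome 14, 80166587 to 80171119) was at 0.343, 1.83 and 6.55 CPM in the knockdown tumours, against 74.1 and 63.7 CPM in the controls. Even the highest knockdown tumour, knockdown 3, was far below the controls, and the log2 fold change of -4.87 ± 0.66 (adjusted p = 0.00063) was the lowest of the 35 tested genes. Without control 1 it was -4.76 and without control 2 it was -4.98.

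Of the other members of its subfamily, the delta-2 protocadherins, Pcdh10, Pcdh17 and Pcdh18 rose and Pcdh19 did not pass, with a negative value (-0.69 ± 0.34, 8 of 9 knockdown tumours below both controls). Pcdh10 was at 4.00, 12.5 and 30.5 CPM in the knockdown tumours, against 3.39 and 0.752 CPM in the controls (log2 fold change 2.69 ± 0.83, adjusted p = 0.035). Pcdh17 was at 4.28, 11.2 and 27.2 CPM in the knockdown tumours, against 2.62 and 2.76 CPM in the controls (2.35 ± 0.75, adjusted p = 0.042). Pcdh18 was the most abundant of the 3, at 41.5, 66.4 and 92.0 CPM in the knockdown tumours, against 34.5 and 21.4 CPM in the controls (1.25 ± 0.34, adjusted p = 0.020). In all 3 every knockdown tumour exceeded both controls, and knockdown 3 was the lowest for Pcdh10 and Pcdh17. None of the 3 passed with 1 control: the values were 4.13 and 1.96 for Pcdh10, 2.31 and 2.39 for Pcdh17 and 1.64 and 0.94 for Pcdh18 without control 1 and control 2. Pcdh10 and Pcdh17 did not pass limma-voom (adjusted p = 0.068 and 0.14), Pcdh10 was lost without knockdown 5 (adjusted p = 0.052), and Pcdh17 without any 1 of knockdown 2, 4, 5 and 8 (adjusted p between 0.051 and 0.058).

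Of the others, Pcdh1 was at 23.0, 49.9 and 58.0 CPM in the knockdown tumours, against 106 and 61.2 CPM in the controls. It fell by 0.82 ± 0.26 on the log2 scale (edgeR adjusted p = 0.042). All knockdown tumours lay below control 2, the highest by a small margin. Without control 1 the log2 fold change of Pcdh1 was -0.38 and did not pass. The call of Pcdh1 was also lost without any 1 of knockdown 2, 4, 5, 6, 8 and 9, with adjusted p between 0.052 and 0.065, by limma-voom (0.065) and with no filter on low counts (0.051). Pcdh7 (0.80 ± 0.62), Pcdh9 (-0.98 ± 0.55), Pcdh19 (-0.69 ± 0.34) and Pcdh11x (2.30 ± 1.07) did not pass. Pcdh19, the X-linked gene of a female epilepsy, was at 16.6, 34.8 and 57.0 CPM in the knockdown tumours, against 54.6 and 60.4 CPM in the controls. Pcdh9 passed without knockdown 9, in which it was highest (-1.30, adjusted p = 0.036).

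Promoters of these genes are shown because Pcdh8 fell while 3 genes of its subfamily rose, and that of Celsr2 because it changed with the smallest p. The 4 delta-2 protocadherins that passed the test come first. Each run covers 250 bases before to 50 after the outermost RefSeq start on GRCm38.p6, 5′ to 3′ on the strand of the gene, with every CG dinucleotide in capitals.
Pcdh8 (chr14:79771263-79771562, minus strand): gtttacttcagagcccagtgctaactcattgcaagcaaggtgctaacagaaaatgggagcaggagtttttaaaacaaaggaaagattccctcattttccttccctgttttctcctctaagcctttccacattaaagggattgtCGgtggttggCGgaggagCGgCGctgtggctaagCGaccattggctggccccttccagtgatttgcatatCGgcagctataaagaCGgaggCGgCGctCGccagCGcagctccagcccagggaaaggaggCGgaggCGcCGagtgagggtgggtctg
Pcdh10 (chr3:45378148-45378447, plus strand): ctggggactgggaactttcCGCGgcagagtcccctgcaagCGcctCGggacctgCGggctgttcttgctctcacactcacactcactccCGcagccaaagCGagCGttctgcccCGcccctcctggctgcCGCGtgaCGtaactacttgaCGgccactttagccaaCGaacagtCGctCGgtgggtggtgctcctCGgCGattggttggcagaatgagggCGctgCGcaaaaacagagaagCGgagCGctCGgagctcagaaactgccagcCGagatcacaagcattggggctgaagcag
Pcdh17 (chr14:84443313-84443612, plus strand): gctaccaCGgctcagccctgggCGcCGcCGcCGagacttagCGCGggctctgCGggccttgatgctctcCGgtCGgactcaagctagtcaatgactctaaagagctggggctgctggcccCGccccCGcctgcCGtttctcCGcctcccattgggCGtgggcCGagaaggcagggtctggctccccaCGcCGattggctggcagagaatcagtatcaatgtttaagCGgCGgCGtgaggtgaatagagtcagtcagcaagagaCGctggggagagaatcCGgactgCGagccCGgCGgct
Pcdh18 (chr3:49757267-49757566, minus strand): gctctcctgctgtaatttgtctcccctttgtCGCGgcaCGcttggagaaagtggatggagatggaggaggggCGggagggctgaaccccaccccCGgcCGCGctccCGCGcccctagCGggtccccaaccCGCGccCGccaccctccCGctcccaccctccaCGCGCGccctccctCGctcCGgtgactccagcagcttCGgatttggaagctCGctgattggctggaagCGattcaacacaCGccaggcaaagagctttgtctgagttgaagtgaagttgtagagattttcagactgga
Celsr2 (chr3:108415530-108415829, minus strand): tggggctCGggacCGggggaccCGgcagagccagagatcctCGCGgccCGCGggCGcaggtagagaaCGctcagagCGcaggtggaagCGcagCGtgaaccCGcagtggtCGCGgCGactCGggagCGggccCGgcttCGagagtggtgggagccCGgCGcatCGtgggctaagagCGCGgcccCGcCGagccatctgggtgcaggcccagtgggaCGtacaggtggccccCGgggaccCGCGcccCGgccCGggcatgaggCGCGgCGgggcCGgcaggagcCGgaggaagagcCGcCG
The Pcdh8 window held 14 CG dinucleotides, against 24 in Pcdh10, 26 in Pcdh17, 23 in Pcdh18 and 40 in Celsr2. Over 27025 genes with a window the median was 7, and 63.1% of them had fewer CG dinucleotides than Pcdh8, 80.0% fewer than Pcdh10 and 96.2% fewer than Celsr2. Of 40 genes outside the clusters that were looked up, 28 had a window. Among these the 3 that rose had between 23 and 26 CG dinucleotides, the 6 that fell between 5 and 40, and the 12 tested ones that did not pass between 2 and 38. The motif CACCTG, or CAGGTG on the other strand, which Snail and Zeb factors are known to bind, was present in 5 of the 28 windows (17.9%) and in 20.1% of all windows. Celsr2 held it 2 times, and the 4 delta protocadherins shown did not hold these letters.

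Pcdh12 (vascular endothelial cadherin-2, a protocadherin of endothelial cells; ENSMUSG00000024440, mm9 chromosome 18) rose. It was at 6.84, 13.6 and 24.0 CPM in the knockdown tumours, against 2.92 and 2.69 CPM in the controls, and the groups did not overlap. On the log2 scale it rose by 2.33 ± 0.51 (adjusted p = 0.0085), with 2.39 and 2.27 (adjusted p = 0.079 and 0.075) without control 1 and control 2. Part of the endothelial list was higher as well, where 10.3% of all tested genes rose and 13% fell. Of its 11 genes other than Cdh5, 4 rose (Ramp2, Tie1, Cldn5 and Emcn) and 1 fell (Flt1), and 0 or 1 rose when control 1 or control 2 was left out. Their summed level was between 215 and 524 CPM in the knockdown tumours, against 466 and 288 CPM in the controls, so that the sums overlapped, and Flt1 alone was at 31.5, 40.9 and 54.6 CPM in the knockdown tumours, against 313 and 125 CPM in the controls. Tie1, an endothelial receptor, rose by 1.498 ± 0.50 on the log2 scale and Pecam1, another endothelial surface protein, had 0.52 ± 0.23 (adjusted p = 0.13). The part of endothelial cells in the result was not tested.

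Of the other protocadherins outside the clusters, Pcdh20 was at 0.611, 3.02 and 7.38 CPM in the knockdown tumours, against 0.539 and 0.313 CPM in the controls. All knockdown tumours lay above the controls, knockdown 7 only just, and the test was missed narrowly (2.93 ± 1.00, adjusted p = 0.053). It passed without knockdown 3 or knockdown 7 (adjusted p = 0.035 and 0.028) and with DESeq2 (adjusted p = 0.0050). Pcdh15, the tip-link partner of Cdh23, was at 1.24, 4.00 and 6.03 CPM in the knockdown tumours, against 3.77 and 13.6 CPM in the controls (-1.09 ± 0.50, adjusted p = 0.14), and its sign turned without control 2 (0.12).

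Of the 8 Fat, Dchs and Celsr genes 7 were tested and 1 passed, against 23.3% called over all tested genes. Celsr2 (ENSMUSG00000068740, mm9 chromosome 3, 108193769 to 108218470), a planar polarity protein of ependyma and neurons, was at 4.45, 7.63 and 10.7 CPM in the knockdown tumours, against 74.9 and 55.1 CPM in the controls. The knockdown tumours lay close together and far below both controls, and the log2 fold change of -3.13 ± 0.23 had the smallest p of the family (adjusted p = 2.7e-05). Without control 1 it was -2.90 and without control 2 it was -3.34. Its paralogs did not follow. Celsr1 was at 10.3, 18.5 and 28.1 CPM in the knockdown tumours, against 24.1 and 22.5 CPM in the controls (-0.35 ± 0.31, adjusted p = 0.44). Celsr3 was at 3.45, 4.89 and 9.82 CPM in the knockdown tumours, against 3.31 and 3.07 CPM in the controls, higher in all 9 but not past the test (0.85 ± 0.46, adjusted p = 0.20). Whether the change of Celsr2 differs from that of its paralogs was not tested.

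The giant cadherins Fat1 and Dchs1 were abundant and just missed the test. Fat1, a tumour suppressor in glioma and other cancers, was at 104, 120 and 258 CPM in the knockdown tumours, against 253 and 244 CPM in the controls. Knockdown 9 was as high as the controls and the other 8 lay below them (-0.82 ± 0.29, adjusted p = 0.062), and Fat1 passed without knockdown 9 (-0.98, adjusted p = 0.0047), without knockdown 6 (-0.89, adjusted p = 0.046) and with DESeq2 (adjusted p = 0.048). Dchs1, a ligand of Fat4, was at 70.9, 94.3 and 138 CPM in the knockdown tumours, against 170 and 118 CPM in the controls (-0.56 ± 0.20, adjusted p = 0.063). Here too knockdown 9 was highest, and Dchs1 passed without it (-0.64, adjusted p = 0.018) and with DESeq2 (adjusted p = 0.044). Fat4 (0.14 ± 0.52) and Fat3 (-1.10 ± 0.66) did not pass, and Fat2 had at most 6 counts in a library.

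Levels can be compared between genes only per length. Per kilobase of exon (GENCODE M21, a later build than the counts), Cdh2 was the most abundant gene outside the clusters in both groups, at 15.0 CPM per kilobase (median) in the knockdown tumours and 41.9 (mean) in the controls. Pcdh18 came next in the knockdown tumours at 12.4 CPM per kilobase, followed by Cdh5 at 9.995, Dchs1 at 8.53 and Fat1 at 7.68. In the controls Cdh13 came next at 32.2 CPM per kilobase, followed by Fat1 at 15.9, Pcdh8 at 15.2, Dchs1 at 13.0 and Cdh4 at 11.7. Pcdh8 and Cdh4, among the 6 most abundant in the controls, were at 0.404 and 1.03 CPM per kilobase in the knockdown tumours. Pcdh18 and Cdh5 were at 5.21 and 6.16 CPM per kilobase in the controls.

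The clustered protocadherins lie in a row on chromosome 18, first the alpha, then the beta, then the gamma genes. Reads of these paralogs are similar, the alpha and gamma transcripts share their last exons, and the table lists only Pcdha3, Pcdha5 and Pcdhga8 of the alpha and gamma types, so that their counts may stand for more than 1 transcript. Of 24 genes 22 were tested, 1 rose and 8 fell, against the same 10.3% and 13% of all tested genes, and the median log2 fold change was -0.88. Pcdha5 was at 6.18, 10.2 and 18.9 CPM in the knockdown tumours, against 2.08 and 2.57 CPM in the controls, all 9 knockdown tumours lying above both controls (2.17 ± 0.47, adjusted p = 0.0072). Pcdhga8 was at 304, 398 and 686 CPM in the knockdown tumours, against 848 and 708 CPM in the controls, all 9 lying below both (-0.89 ± 0.26, adjusted p = 0.029). Both lost the call with 1 control (adjusted p = 0.088 and 0.051 for Pcdha5 and 0.24 and 0.089 for Pcdhga8).

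The beta genes changed by place in the row. From Pcdhb11 to Pcdhb22, all 11 genes had negative log2 fold changes, between -3.10 and -0.42, and 7 of them fell. From Pcdhb1 to Pcdhb10, 9 were tested, 5 had positive and 4 negative values between -0.95 and 1.03, and 0 passed the edgeR test, with Pcdhb7 at an unadjusted p of 0.012 and Pcdhb9 at 0.032. For Pcdhb7 all 9 knockdown tumours lay above both controls (1.03 ± 0.35, edgeR adjusted p = 0.051). By DESeq2 2 clustered genes rose. This division was chosen after the values were seen and is a description. Across the 20 tested beta genes, which share similar sequence and the same libraries, Spearman's rho between order and log2 fold change was -0.80 and Pearson's r was -0.74. The summed level of Pcdhb11 to Pcdhb22 was 28.0, 37.7 and 44.4 CPM in the knockdown tumours, against 141 and 96.8 CPM in the controls. That of Pcdhb1 to Pcdhb10 was 18.4, 31.6 and 36.1 CPM in the knockdown tumours, against 18.2 and 25.997 CPM in the controls, where the groups overlapped.

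The 3 beta genes with the smallest p are neighbours. Pcdhb18 was at 1.27, 1.89 and 3.04 CPM in the knockdown tumours, against 25.9 and 11.9 CPM in the controls (-3.10 ± 0.32, adjusted p = 0.00013). Pcdhb17 was at 5.54, 8.47 and 9.18 CPM in the knockdown tumours, against 34.5 and 25.0 CPM in the controls (-1.97 ± 0.21, adjusted p = 0.00015). Pcdhb16 was at 2.86, 4.35 and 5.92 CPM in the knockdown tumours, against 25.0 and 16.04 CPM in the controls (-2.20 ± 0.24, adjusted p = 0.00017). In these 3 no knockdown tumour came near a control, and they kept their calls with either control left out. Pcdhb19 was next (-1.48 ± 0.35, adjusted p = 0.012). Pcdhb15, Pcdhb21 and Pcdhb22 fell as well, by 1.75, 1.26 and 1.08 on the log2 scale. Without control 1 the values of Pcdhb15, Pcdhb19, Pcdhb21 and Pcdhb22 were -1.47, -1.12, -0.20 and -0.59 and none of these 4 passed, and without control 2 Pcdhb15 did not pass (adjusted p = 0.052). Pcdhb1 and Pcdha3 had at most 2 counts in a library.

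**Figure D3:**
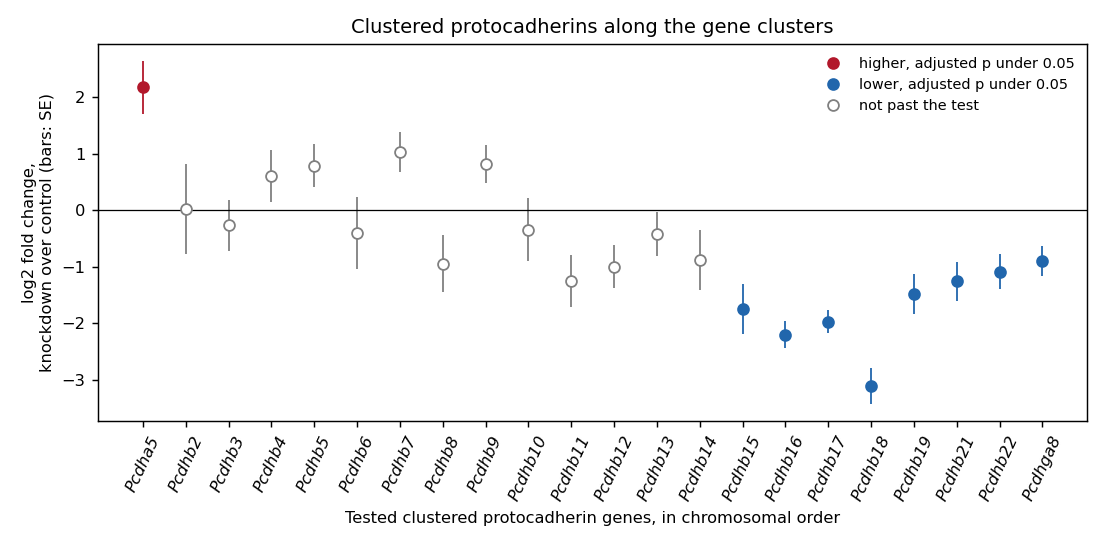
Log2 fold change of knockdown over control (y axis, bars are SE) for the 22 tested clustered protocadherins in chromosomal order (x axis). Filled points passed the edgeR test. Pcdha5 is higher at 2.17, the beta genes up to Pcdhb10 lie between -0.95 and 1.03, and the called genes from Pcdhb15 on lie between -3.10 and -0.89.

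The catenins, which join cadherin tails to actin, had a summed level of 1858, 2025 and 2480 CPM in the knockdown tumours, against 3192 and 2591 CPM in the controls. The sums did not overlap, but Ctnnb1 alone, given below, made up a large part of them. Of 10 tested, 1 rose, 2 fell and 7 did not pass, against 10.3% higher and 13% lower over all tested genes. On lists this small such counts describe the genes and are no evidence about the list. Ctnnb1 (beta-catenin, also the Wnt effector) was at 688, 770 and 1072 CPM in the knockdown tumours, against 1802 and 1208 CPM in the controls (-0.85 ± 0.19, adjusted p = 0.0099). Ctnnd1 (p120-catenin, which holds cadherins at the surface) fell by 0.59 ± 0.11 on the log2 scale (adjusted p = 0.0035). Jup (plakoglobin, a relative of beta-catenin) was at 202, 241 and 409 CPM in the knockdown tumours, against 109 and 147 CPM in the controls (1.02 ± 0.25, adjusted p = 0.0145). These 3 genes did not overlap between groups, yet none passed without control 1, at -0.53, -0.50 and 0.82. Ctnna1 (alpha-catenin) had a log2 fold change of 0.00 ± 0.14.

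Proteases that cut cadherins and nectins, the second adhesion system of the junction, had members that fell. Of 12 proteases 4 fell and 0 rose by edgeR, and 0 rose by DESeq2. For this list and the next ones, the shares over all tested genes were 10.3% higher and 13% lower by edgeR. Adam10, the main sheddase of N-cadherin, was at 152, 198 and 229 CPM in the knockdown tumours, against 416 and 334 CPM in the controls (-0.94 ± 0.14, adjusted p = 0.0010). Ncstn (nicastrin, of gamma-secretase) fell by 0.81 ± 0.17 (adjusted p = 0.0061), beside Pcsk5 and Furin. Without control 1 only Adam10 passed. Of 6 nectin genes 2 fell, Pvrl4 (-1.19 ± 0.33) and Pvrl3 (-0.47 ± 0.14). Neither passed without control 1 (-1.47 and -0.32), and Pvrl4 did not pass without control 2 either (-0.84). Of the 9 desmosomal cadherins 2 were tested and 0 passed by edgeR, Dsg2 at 1.95 ± 0.74 (unadjusted p = 0.022) and Dsc2 at 4.07 ± 2.01 (unadjusted p = 0.066), whereas 1 passed by DESeq2, and 7 were at 0 in both controls. Of 7 calsyntenin and cadherin-related gene models 3 rose, Clstn3 (2.76 ± 0.64, adjusted p = 0.011) and both models named Cdhr4, which overlap each other. Without control 2 none of these passed (Clstn3 2.04), and without control 1 neither Cdhr4 model did (2.27 and 2.59).

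Partners of Celsr in planar polarity went both ways, with 3 of 13 higher and 2 lower, against 10.3% and 13% of all tested genes. Prickle1, a cytoplasmic polarity protein, was at 23.4, 80.8 and 100.1 CPM in the knockdown tumours, against 9.31 and 7.45 CPM in the controls (2.99 ± 0.56, adjusted p = 0.0035). Ptk7, a polarity co-receptor, rose by 0.78 ± 0.17 on the log2 scale and Prickle2 by 0.93 ± 0.30, while Dvl1 (-0.73 ± 0.13) and the membrane protein Vangl1 (-0.72 ± 0.14) fell. Of these, Prickle1 passed without either control, at 3.16 and 2.83, and Ptk7 with neither, at 0.80 and 0.75. Prickle2 and Dvl1 did not pass without control 2 (0.52 and -0.59) and Vangl1 not without control 1 (-0.47). Prickle2 was also lost without any 1 of knockdown 1, 2, 4, 5, 7 and 9 (adjusted p between 0.051 and 0.065) and with no filter on low counts (0.055). Of 8 partners of Fat and Dchs, Lix1 (1.86 ± 0.47) and Evl (0.45 ± 0.12) rose and Wwc1 (-1.99 ± 0.61) and Vasp (-0.67 ± 0.19) fell, and none of the 4 passed with 1 control. Wwc1 was also lost without knockdown 1, 2, 4 or 5 (adjusted p between 0.050 and 0.056). Of 16 gene models of factors known to act on the protocadherin clusters, such as Ctcf and cohesin, 1 rose, the cohesin subunit Stag1 (0.51 ± 0.10, adjusted p = 0.0046; 0.47 and adjusted p = 0.069 without control 1).

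Among 7 measured repressors of E-cadherin, 2 rose and 1 fell, against 10.3% and 13% of all tested genes. Snai1 was at 82.6, 126 and 166 CPM in the knockdown tumours, against 31.2 and 20.6 CPM in the controls (2.27 ± 0.25, adjusted p = 0.00021), and Twist1 rose by 2.86 ± 0.50 (adjusted p = 0.0025). Zeb2 was at 85.0, 96.1 and 108 CPM in the knockdown tumours, against 167 and 167 CPM in the controls (-0.81 ± 0.095, adjusted p = 0.00028). All 3 passed with either control left out, while Cdh1 itself, as given above, did not pass. Over these 9 lists of genes that work with cadherins, medians of the log2 fold change ran from -0.54 for the nectins to 0.28 for the Fat and Dchs partners, apart from 2.13 for the cadherin-related and 3.01 for the pair of desmosomal genes, against 0.07 over all tested genes. The cadherin-related median was the value of a Cdhr4 model with 2 and 3 counts in the controls, which overlaps the other Cdhr4 model.

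**Figure D4:**
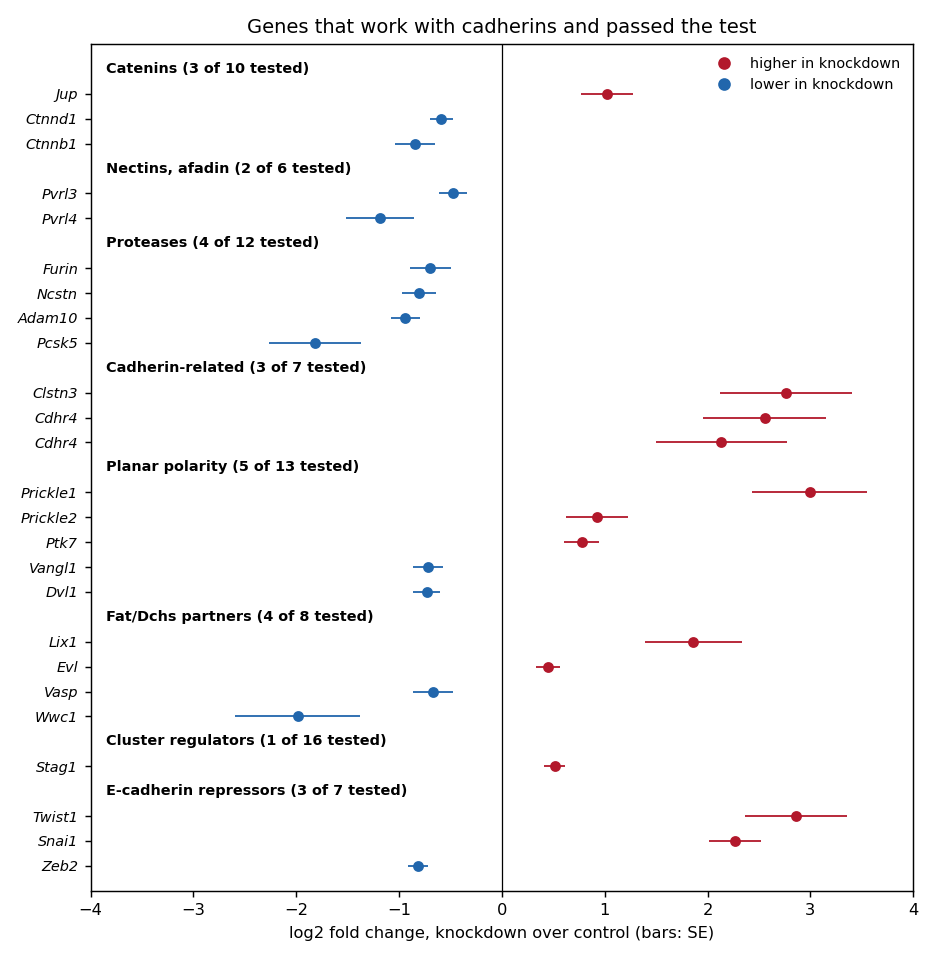
Log2 fold change of knockdown over control (x axis, bars are SE) for the genes that work with cadherins and passed the edgeR test, by list, with the number of tested gene models in brackets. Prickle1 is highest at 2.99 and Wwc1 lowest at -1.99.

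Markers of other cells that tumours may hold were read beside these results. Over all tested genes 10.3% rose and 13% fell. Of 8 macrophage markers 7 fell, with a summed level of 227 to 505 CPM in the knockdown tumours, against 620 and 1334 CPM in the controls, and 1 fell without control 2. Of 8 pericyte markers 2 rose, and 0 by edgeR with either control left out (571 to 1368 CPM in the knockdown tumours, against 436 and 498 CPM in the controls). Of 11 neuron markers 2 rose and 2 fell (86.2 to 508 CPM in the knockdown tumours, against 693 and 283 CPM in the controls). Of 6 oligodendrocyte precursor markers 2 rose and 2 fell (87.0 to 292 CPM in the knockdown tumours, against 134 and 273 CPM in the controls). Of 8 astrocyte markers 0 passed by edgeR, 1 had an unadjusted p under 0.05 and 1 rose by DESeq2 (115 to 861 CPM in the knockdown tumours, against 236 and 380 CPM in the controls), and 0 of 5 ependymal and choroid plexus markers passed by edgeR, with 0 at an unadjusted p under 0.05 and 1 lower by DESeq2 (35.5 to 323 CPM in the knockdown tumours, against 137 and 189 CPM in the controls). Of 6 fibroblast and meningeal markers 1 rose (Pdgfra, also on the precursor list) and 1 fell (748 to 4406 CPM in the knockdown tumours, against 4245 and 4392 CPM in the controls), the one that fell being Col1a2, a collagen chain. The part of these cells in the results was not tested.

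The knockdown tumours differed among themselves. Knockdown 9, which kept the second most Ezh2 at 30.1 CPM, had, among the tested genes outside the clusters, the highest level of Cdh2, Cdh4, Cdh5, Cdh10, Cdh19, Pcdh9, Fat1, Dchs1, Fat4, Celsr2 and Celsr3 and the lowest of Pcdh7, Pcdh12, Pcdh19, Cdh3 and Cdh17. Knockdown 6 was the highest for Pcdh7, Pcdh10, Pcdh11x, Pcdh17, Pcdh19, Cdh6 and Cdh23 and the lowest for Celsr2, Celsr3, Fat3, Cdh10, Cdh15, Cdh20 and Cdh22. With knockdown 7 and 9 both left out, 7 genes outside the clusters rose and 13 fell, the 16 called in all tumours among them, while over all genes 2229 rose and 2774 fell, against 1674 and 2116 with all tumours. In the 7 libraries with Xist reads, 7 rose and 11 fell, with 14 of the 16 (not Cdh15 and Pcdh1) among them, while over all genes 2128 rose and 2503 fell.

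**Figure D5:**
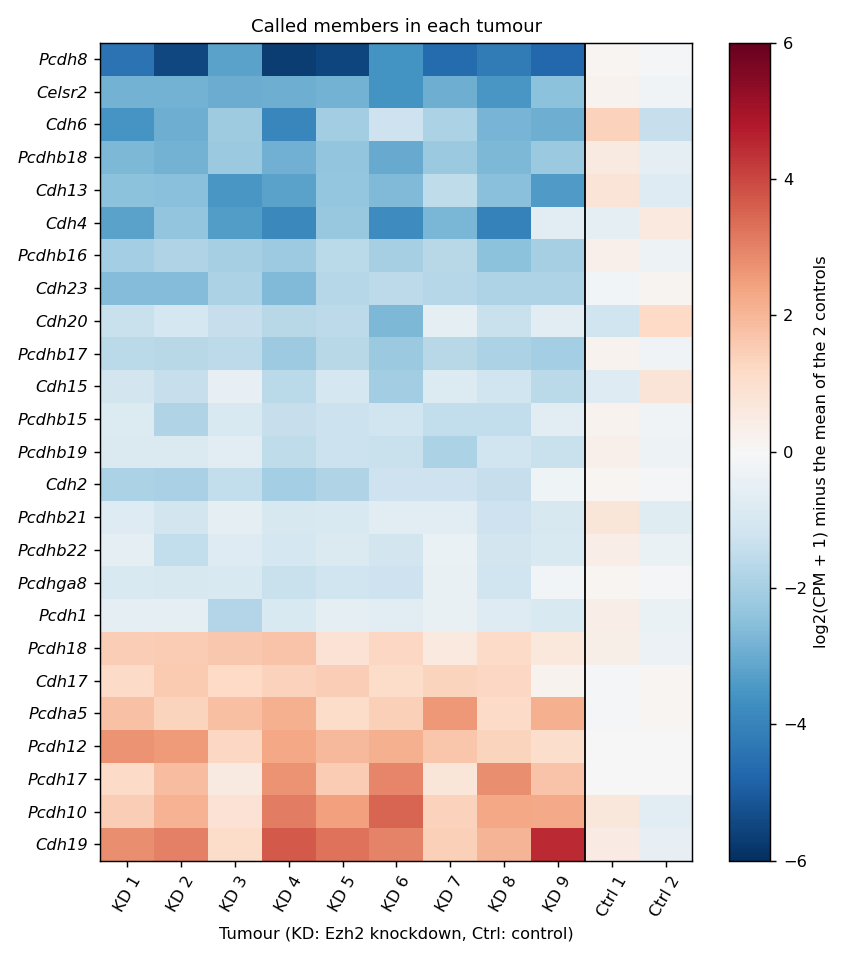
Level of each of the 25 called genes, clustered ones included, in every tumour (columns, KD 1 to KD 9 and both controls) as log2(CPM + 1) minus the mean of the controls (colour). Rows run by log2 fold change from Pcdh8 at -4.87 to Cdh19 at 4.11; knockdown 9 is the palest knockdown column for Cdh2 and Cdh4.

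Whether these genes follow the Ezh2 that remains was read from a slope on log2 Ezh2 CPM over the 9 knockdown tumours. Of the 35 genes outside the clusters 0 passed (edgeR, adjusted p under 0.05), while 5 of all 15538 tested genes did (0.0322%). At an unadjusted p under 0.05 it was 8 of 35, against 17.5% of all tested genes, and no other tool was run. The smallest p belonged to Dchs1, which rose by 0.31 ± 0.08 on the log2 scale per doubling of Ezh2 (adjusted p = 0.13), followed by Pcdh7 (-0.96 ± 0.28) and Cdh24 (0.68 ± 0.20), both with an adjusted p of 0.15. Cdh4 had a slope of 1.16 ± 0.40 (adjusted p = 0.20). Knockdown 3 and 9 were farthest from the median of Ezh2, and without them 0 passed and 6 had an unadjusted p under 0.05. Of 21 clustered genes tested 0 passed and 3 had an unadjusted p under 0.05.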

How the data were processed

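Total RNA of 11 tumours was extracted with TRIzol and sequenced on a HiSeq2000 from TruSeq libraries, per the labels' protocols. The authors deposited raw counts of reads for each Ensembl gene in each tumour. TopHat 1.4.0, HTSeq and mm9 are named in the submitters' processing notes; settings and strand use were not given in the sources used here, and reads of a gene and of an antisense neighbour may be mixed. Another gene model of the table overlaps Cdh2, Cdh4, Cdh13, Cdh20, Cdh23 and Pcdh1. Groups and replicate numbers come from the titles. Nothing says whether tumours came from separate cell preparations, so that p-values measure only sample-to-sample spread, possibly technical. Any pair of replicates differed beyond sampling noise (chi-square per degree of freedom of at least 11.2).

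The fit across genes used edgeR 4.0.16 in R 4.3.3 (filterByExpr, which kept 16241 genes and 99.9% of counts, TMM factors of 0.919 to 1.077, glmQLFit and glmQLFTest without covariates, Benjamini-Hochberg over all tested genes, threshold 0.05). The SE is the log2 fold change divided by the square root of F. The floor of 3 counts was 0.162 to 0.273 CPM in a library. The common biological coefficient of variation was 33.9%. limma 3.58.1 and DESeq2 1.42.0 served as alternatives. The edgeR fits of the groups and of the slope on Ezh2 were tested on simulated data. Promoters were matched by symbol to RefSeq (GRCm38.p6). The members and lists were chosen with earlier results of these data known. Of 8 symbols in the list of E-cadherin repressors and 12 of the neuron list 7 and 11 were matched. By rule, Ezh2, every member outside the clusters, the 4 clustered genes of smallest p in each direction and the 2 genes of smallest p in each direction from each list were named, if past the threshold; other clustered genes, list genes and markers were named after their values were seen.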

Additional observations from a re-analysis of the deposited data

Results flagged for a closer look

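In 6 of 45 genes looked at, 1 of the 9 knockdown tumours stood apart from the others by the gap to its neighbour. For normally distributed values chance alone gives this in about 5% of groups. CPM values need not be so distributed and the genes share the same tumours, so that no excess over chance can be read from this. Knockdown 9 stood high for Cdh4 (50.2 CPM, with the next tumour at 15.5 CPM), for Cdh2 (282 CPM, next 143 CPM) and for Pcdh9 (15.4 CPM, next 8.73 CPM), and low for Cdh17 (1.33 CPM, next 3.27 CPM). Knockdown 7 stood high for Cdh13 at 108 CPM, with the next at 62.7 CPM. Knockdown 3 stood low for Pcdh1 at 23.0 CPM, with the next at 42.2 CPM.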

How the results depend on the processing

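Over all fits without 1 tumour, between 0 and 8 genes outside the clusters rose and between 5 and 12 fell, between 0 and 2 clustered genes rose and between 3 and 10 fell, and over all genes 387 to 1957 rose and 903 to 2418 fell. The log2 fold change of Ezh2 ran from -1.76 to -1.48 in these fits, and against a 1.5-fold change it was -1.59 (adjusted p = 0.091). Tested against a 1.5-fold change, 2 genes outside the clusters rose and 5 fell, 3 clustered genes fell, and over all genes 450 rose and 709 fell. By limma-voom 3 genes outside the clusters rose. By DESeq2 and in the libraries with Xist reads, an alternative chosen after seeing the data like that without knockdown 7 and 9, 2 clustered genes rose. With the replicate number as a block, in tumours 1 and 2 of each group, 1 gene outside the clusters rose and 5 fell, 0 clustered genes rose and 2 fell, and over all genes 336 rose and 398 fell; the labels do not say that a number pairs tumours, and same-numbered tumours deviated with correlations of -0.14 and 0.02. Signs turned for genes that did not pass: Cdh1 (0.28), Pcdh15 (0.12) and Fat3 (0.40) without control 2; Cdh24 without control 1 (0.63), without knockdown 7 (0.02) or 8 (0.06), with the block (0.15) and with Xist reads (0.14); Fat4 without control 1 (-0.36), without knockdown 9 (-0.08) and without knockdown 7 and 9 (-0.028). Over all fits without 1 tumour, Cdh1 ran from -1.64 to 0.28, Pcdh15 from -1.73 to 0.12, Fat3 from -1.82 to 0.40, Cdh24 from -0.50 to 0.63 and Fat4 from -0.36 to 0.91. The cause was not tested. Of all other values of single genes under an alternative, 1109 kept their side of the threshold, 171 lost it and 19 passed it. The number of controls limits what can be seen.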
